A study of Homo sapiens with 6 samples.

Results

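The genes described here are 38 genes of the hypoxia response and of glycolysis, listed by symbol: 4 oxygen-sensing genes, 10 other targets of the hypoxia-inducible factors, 4 glucose and lactate transporters, 17 glycolytic enzymes including the lactate dehydrogenases, and 3 regulatory enzymes. All 38 were found among the 59715 genes of the deposited table and all 38 had enough counts to be tested, among 14543 tested genes. They were measured by poly(A) RNA sequencing of HCT116, a human colorectal cancer cell line, in 3 libraries labelled MLL4WT (wild type) and 3 labelled MLL4KO (knockout of MLL4, a histone H3 lysine methyltransferase). The labels name no drug, dose, time or oxygen level for either group, and describe both as cultured in the same medium in a CO2 incubator, so the comparison is of genotype in cells with no labelled hypoxia. Both lines were received from another laboratory. The labels do not say whether the knockout is 1 clone, which part of the gene was deleted, or whether the 3 libraries of a group came from separate cultures, so the p-values measure the spread between these libraries, which may be technical.

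Library totals ranged from 6829400 to 19736751 counts, with MLL4WT replicate 1 the shallowest. That library also stood apart: the chi-square statistic per degree of freedom over genes was 7.61 and 7.58 against the other MLL4WT libraries, and 2.48 or less for the other pairs within a group. KMT2D, the gene usually meant by MLL4, was at 239.7, 231 and 234 CPM in MLL4WT and 229.5, 243 and 225 CPM in MLL4KO (CPM, counts scaled to library size; adjusted p = 0.832, edgeR quasi-likelihood test), which does not check the label because the place of the deletion is not known. KMT2B, which has also been called MLL4, fell 1.42-fold from 90.5 ± 3.44 CPM in MLL4WT to 63.2 ± 3.45 CPM in MLL4KO (mean ± SD, n = 3 each here and below) (adjusted p = 2.33e-05). The 7 colorectal epithelial markers summed to 1607 to 1669.9 CPM in MLL4WT and 1082 to 1105 CPM in MLL4KO, with none at 0, although VIL1 had 32 counts over the 6 libraries. EPCAM, KRT8, KRT18 and KRT19 were lower in every MLL4KO library, while CDH1 (10.3 to 11.9 CPM in MLL4WT, 10.7 to 12.1 in MLL4KO) and CDX2 (26.3 to 30.8 and 28.3 to 31.8 CPM) overlapped between groups. The 4 fibroblast markers summed to 24.8 to 26.7 CPM in MLL4WT and 30.1 to 34.5 CPM in MLL4KO, and the 3 endothelial markers to 1.78 to 2.19 and 2.88 to 3.76 CPM, both without overlap. Most of the fibroblast sum was COL1A1 (21.8 to 23.1 CPM in MLL4WT, 25.1 to 28.7 in MLL4KO). PDGFRB was also higher (1.78 to 3.33 and 4.25 to 4.78 CPM), whereas COL1A2 overlapped and DCN had 7 counts over the 6 libraries. The 4 leukocyte markers summed to 1.93 to 6.03 and 2.34 to 3.78 CPM, and the T-cell marker CD3E had 1 count over all 6. The part of these marker differences in the results below was not tested. In bulk RNA of a cell line, fewer cells that express a marker cannot be told apart from less RNA per cell.

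Cells sense oxygen through prolyl hydroxylases (the EGLN enzymes), which mark the alpha subunits of the hypoxia-inducible factors (HIFs) for capture by VHL and degradation. When oxygen is short, HIF1A or EPAS1 (HIF-2 alpha) persists, pairs with ARNT and binds the hypoxia response element, whose core is ACGTG or GCGTG. Its targets include glucose transporters, nearly every glycolytic enzyme, angiogenic factors and the EGLN enzymes themselves. Much of this control acts on HIF protein, which RNA does not show. Most glycolytic steps are served by several isozymes from separate genes, and cancer cell lines such as HCT116 run glycolysis to lactate also in air.

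The ACGTG form of the core lies in many of the members' promoters, and GCGTG was not searched. The sites below are shown because they belong to members that changed in opposite directions. Windows of 250 bases before to 50 after the annotated gene start were taken from RefSeq (build GRCh38.p14), and ACGTG was searched on both strands, so that its reverse complement CACGT also counts and the palindrome CACGTG counts as 2 overlapping matches. Of the 33 members with a window, 19 (57.6%) held a match in at least 1 window. The share was 32.4% of 10659 tested genes and 24.9% of 27305 genes with a window. A gene with several windows has more chances of a match, and the members had 61 windows. Counted by window, 37.7% of the members' windows held a match, against 21.4% of all 35116 windows. Written 5′ to 3′ on the gene's own strand, with ACGTG and CACGT in capitals, the first 4 belong to members that were higher in MLL4KO and the last 4 to members that were lower.
CA9 chr9:35673897-35673926 plus strand: ctcgtttccaatgCACGTacagcccgtaca
EGLN1 chr1:231422288-231422317 minus strand: ccgcggggccgtggtgtACGTGcagagcgc
PGK1 chrX:78104043-78104072 plus strand: cggACGTGacaaacggaagccgCACGTctc
ALDOC chr17:28577116-28577145 minus strand: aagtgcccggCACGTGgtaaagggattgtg
LDHA chr11:18394470-18394499 plus strand: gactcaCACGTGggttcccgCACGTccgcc
SLC16A3 chr17:82228968-82228997 plus strand: gcggtgACGTGcgcgggggACGTGccgcgc
TPI1 chr12:6868075-6868104 plus strand: ccgtgcgccgccgCACGTagccccagactc
PFKP chr10:3069037-3069066 plus strand: gccacgagcgcctACGTGatgcccggcccg

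Of the members with a window, 4 of 6 that rose and 6 of 9 that fell held the motif, and 9 of 18 that were not called did. HK2 and GAPDH, which fell and also held it, are not shown. The sites of PGK1, LDHA and SLC16A3 each hold more than 1 separate core, whereas ALDOC holds a single palindrome in the stretch shown. Each stretch was chosen as the one with the most matches close together before the gene start, over all windows of the gene. LDHA, SLC16A3, TPI1 and PFKP also had windows without a match. A match describes letters in a window and not a bound site. VEGFA, NDRG1, BNIP3L, SLC2A3 and SLC16A1 had no window in the table used.

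The members did not move in 1 direction. At an adjusted p under 0.05 in the edgeR quasi-likelihood test, 8 members rose in MLL4KO, 11 fell and 19 were not called, which is 50% called against 41.4% of all tested genes (19.8% rose and 21.6% fell). The 8 that rose were the oxygen sensor EGLN1, the HIF targets CA9, NDRG1, BNIP3L and KDM3A, and the glycolytic enzymes PFKL, ALDOC and PGK1. The 11 that fell were EGLN3, VEGFA, the transporters SLC2A3 and SLC16A3, and the glycolytic enzymes HK1, HK2, PFKP, TPI1, GAPDH, ENO1 and LDHA. The median log2 fold change was -0.06 over the members and -0.00 over all tested genes. Most changes were small: 9 members (23.7%) were called with a change of at least 1.25-fold, against 25.4% of all genes, 1 rose at least 2-fold (2.72% of all genes did) and 2 fell at least 2-fold (2.25% did). For 24 members (63.2%) the 3 libraries of the groups did not overlap, against 52.5% of all genes.

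The split of the calls depended on the scaling and on 1 library. With libraries scaled by total counts in place of TMM factors, which balance the bulk of genes between libraries, 12 members rose and 9 fell, and among all genes 3706 rose and 2394 fell (41.9% called). Without MLL4WT replicate 1, 11 rose and 16 fell, with 49.5% of all genes called. The 8 members called without it and not in the full comparison were SLC2A1, PFKFB4 and PKM, which rose, and P4HA2, GPI, ALDOA, ENO2 and PDK1, which fell. The column names carry a code that libraries of both genotypes share in 2 cases (MLL4WT replicate 3 with MLL4KO replicate 1, and MLL4WT replicate 2 with MLL4KO replicates 2 and 3). Within each of these codes all 19 called members differed in the direction of the full comparison, as did 99.9% of all called genes; these are libraries of that comparison, not further samples. Of all 38 members 34 had 1 sign in both codes, against 81.6% of tested genes. MLL4WT replicate 1 is alone in its code. In the plot of log2 fold changes by role, the large changes were few and lay among the low-expressed members.

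**Figure D1:**
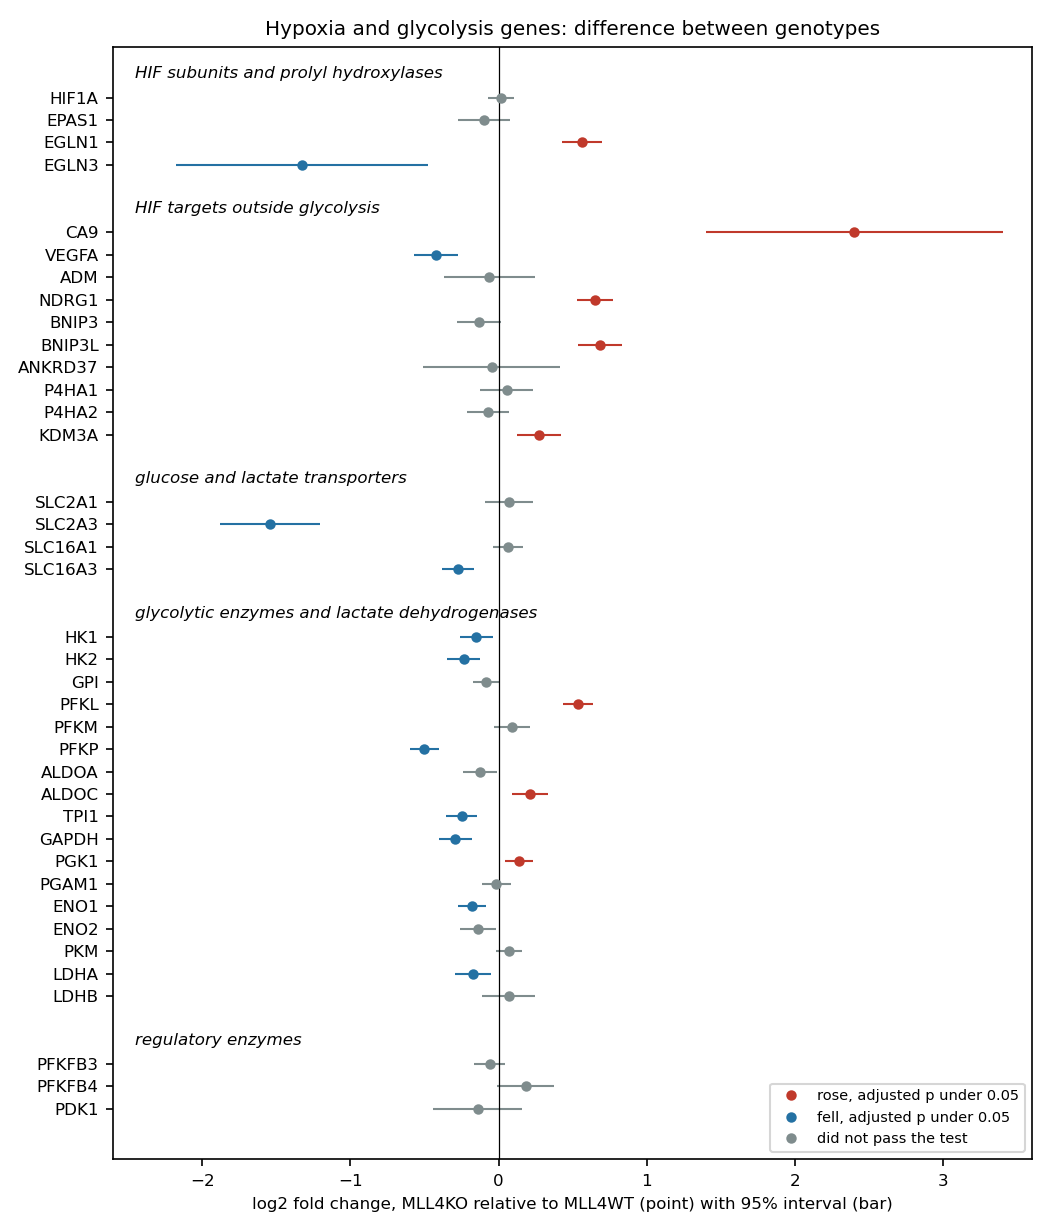
Log2 fold change of each of the 38 members, MLL4KO against MLL4WT (edgeR), grouped by role, with bars for the 95% confidence interval and colour for the call. CA9 at 2.40, SLC2A3 at -1.54 and EGLN3 at -1.32 lie beyond a 2-fold change, and the glycolytic enzymes lie between -0.50 (PFKP) and 0.54 (PFKL).

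Gene coordinates here and below are those of GENCODE 29 on GRCh38 and span the whole gene. RNA of the HIF alpha subunits differed by less than the test could call, whereas the genes of 2 prolyl hydroxylases changed in opposite directions. HIF1A, the broadly expressed alpha subunit, was at 179, 175 and 178 CPM in MLL4WT and 179, 179 and 181 CPM in MLL4KO. The groups overlapped, and the 95% confidence interval of the log2 fold change was -0.07 to 0.11 (adjusted p = 0.774). EPAS1, the alpha subunit with the more restricted range of tissues, was at 34.2, 28.8 and 28.0 CPM in MLL4WT and 27.8, 27.4 and 28.4 CPM in MLL4KO, again with overlapping groups (95% interval -0.27 to 0.08, adjusted p = 0.354). Per kilobase of exon, HIF1A stood at 34.5 CPM per kb in MLL4WT and 34.9 in MLL4KO, and EPAS1 at 4.15 CPM per kb in MLL4WT and 3.81 in MLL4KO.

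EGLN1 (PHD2, chr1:231363751-231425044, minus strand), the main HIF prolyl hydroxylase and itself a HIF target, was at 79.9, 68.8 and 67.3 CPM in MLL4WT and 105, 106 and 105 CPM in MLL4KO. Every MLL4KO library lay above every MLL4WT library, and EGLN1 rose 1.48-fold (log2 fold change 0.57 ± 0.06 SE, adjusted p = 2.12e-05, edgeR). EGLN3 (PHD3, chr14:33924231-34462774, minus strand), a strongly hypoxia-inducible hydroxylase, was scarce, at 2.67, 1.51 and 1.21 CPM in MLL4WT and 0.746, 0.431 and 0.798 CPM in MLL4KO. Its groups did not overlap and it fell 2.50-fold (log2 fold change -1.32 ± 0.39 SE, adjusted p = 0.017), but the call was lost without MLL4KO replicate 1 (log2 -1.44, adjusted p = 0.0501) or MLL4KO replicate 2 (log2 -1.11, adjusted p = 0.0816). The highest library of EGLN3, MLL4WT replicate 1, was also the shallowest one. The log2 ratio of EGLN1 to EGLN3 within a library was 4.86, 5.48 and 5.77 in MLL4WT and 7.09, 7.85 and 6.98 in MLL4KO, a difference of 1.94.

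Of the 10 HIF targets outside glycolysis, 4 rose, 1 fell and 5 were not called, which is 50% called against 41.4% of all tested genes, with a median log2 fold change of 0.00. CA9 (chr9:35673856-35681159, plus strand), a cell-surface carbonic anhydrase much used as a marker of hypoxic tumour cells, had 0, 4 and 10 counts in MLL4WT and 38, 31 and 28 counts in MLL4KO. These are 0, 0.274 and 0.574 CPM and 1.89, 1.91 and 1.86 CPM, so all 3 MLL4KO libraries lay close together and above all of MLL4WT, while the MLL4WT values were near the floor of 3 counts (0.446 CPM in replicate 1). The fitted rise was 5.28-fold (log2 fold change 2.40 ± 0.46 SE, adjusted p = 0.00129), a size that depends on the model because 1 MLL4WT library had no count; over each group the counts summed to 14 and 97. With 1 library left out the call was kept and the log2 fold change of CA9 ran from 2.11 (without MLL4WT replicate 1) to 3.31 (without MLL4WT replicate 3). CA9 shares 643 exon bases with ARHGEF39 on the opposite strand, and the library kit is not stated to keep strand, so reads there cannot be assigned. ARHGEF39 itself fell 1.22-fold, from 22.2 ± 2.88 CPM in MLL4WT to 17.8 ± 1.51 CPM in MLL4KO (adjusted p = 0.0381).

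NDRG1 (chr8:133237171-133302022, minus strand), a stress-responsive gene induced by hypoxia in many cell types, was at 78.9, 69.1 and 71.2 CPM in MLL4WT and 116, 112 and 114 CPM in MLL4KO. The groups were well apart, and NDRG1 rose 1.57-fold with the smallest adjusted p of the 38 (log2 fold change 0.65 ± 0.06 SE, adjusted p = 2.91e-06, edgeR). BNIP3L (NIX, chr8:26382898-26505636, plus strand), a mitochondrial outer-membrane receptor for mitophagy, was at 31.7, 31.7 and 29.1 CPM in MLL4WT and 47.0, 49.3 and 51.9 CPM in MLL4KO. It rose 1.61-fold (log2 fold change 0.69 ± 0.07 SE, adjusted p = 9.87e-06) without overlap. Its paralogue BNIP3, which has a like role in mitophagy, was at 53.6, 47.3 and 48.6 CPM in MLL4WT and 42.2, 47.1 and 46.2 CPM in MLL4KO and was not called, with a log2 fold change of -0.13 ± 0.07 (SE) and an adjusted p of 0.142. The BNIP3 to BNIP3L log2 ratio was 0.76, 0.58 and 0.74 in MLL4WT and -0.15, -0.07 and -0.17 in MLL4KO. Per kilobase of exon BNIP3L went from 43.3% ± 1.74 of its family in MLL4WT to 57.5% ± 0.928 in MLL4KO. A family here and below means only the isozymes or paralogues among the 38 members. Which of the pair was larger in MLL4KO depended on the length used: with that of the longest transcript, BNIP3L went from 34.4% to 48.2%.

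KDM3A (chr2:86440647-86492716, plus strand), a HIF-induced demethylase of histone H3 lysine 9, was at 46.1, 40.8 and 39.6 CPM in MLL4WT and 52.1, 48.2 and 50.7 CPM in MLL4KO. It rose 1.21-fold (log2 fold change 0.27 ± 0.07 SE, adjusted p = 0.00662, edgeR), with the groups apart by a small margin, and the call was lost under a correction for GC content and gene length (log2 0.14, adjusted p = 0.120) or when counts were thinned to the shallowest library (log2 0.16, adjusted p = 0.158). VEGFA (chr6:43770184-43786487, plus strand), the main angiogenic growth factor among HIF targets, went the other way, at 60.6, 57.8 and 62.3 CPM in MLL4WT and 48.4, 44.9 and 41.0 CPM in MLL4KO. Every MLL4KO library was below every MLL4WT library, and VEGFA fell 1.34-fold (log2 fold change -0.42 ± 0.07 SE, adjusted p = 0.000399). The uncalled targets were the vasodilator peptide gene ADM, the ankyrin-repeat gene ANKRD37, and P4HA1 and P4HA2, the catalytic subunits of collagen prolyl 4-hydroxylase. Their log2 fold changes lay between -0.07 (P4HA2) and 0.05 (P4HA1), with adjusted p from 0.398 to 0.881; P4HA2 was called lower without MLL4WT replicate 1 (log2 -0.12, adjusted p = 0.0382). ANKRD37, which shares 909 exon bases with UFSP2 on the opposite strand, had the widest 95% interval of the 4, -0.51 to 0.42.

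**Figure D2:**
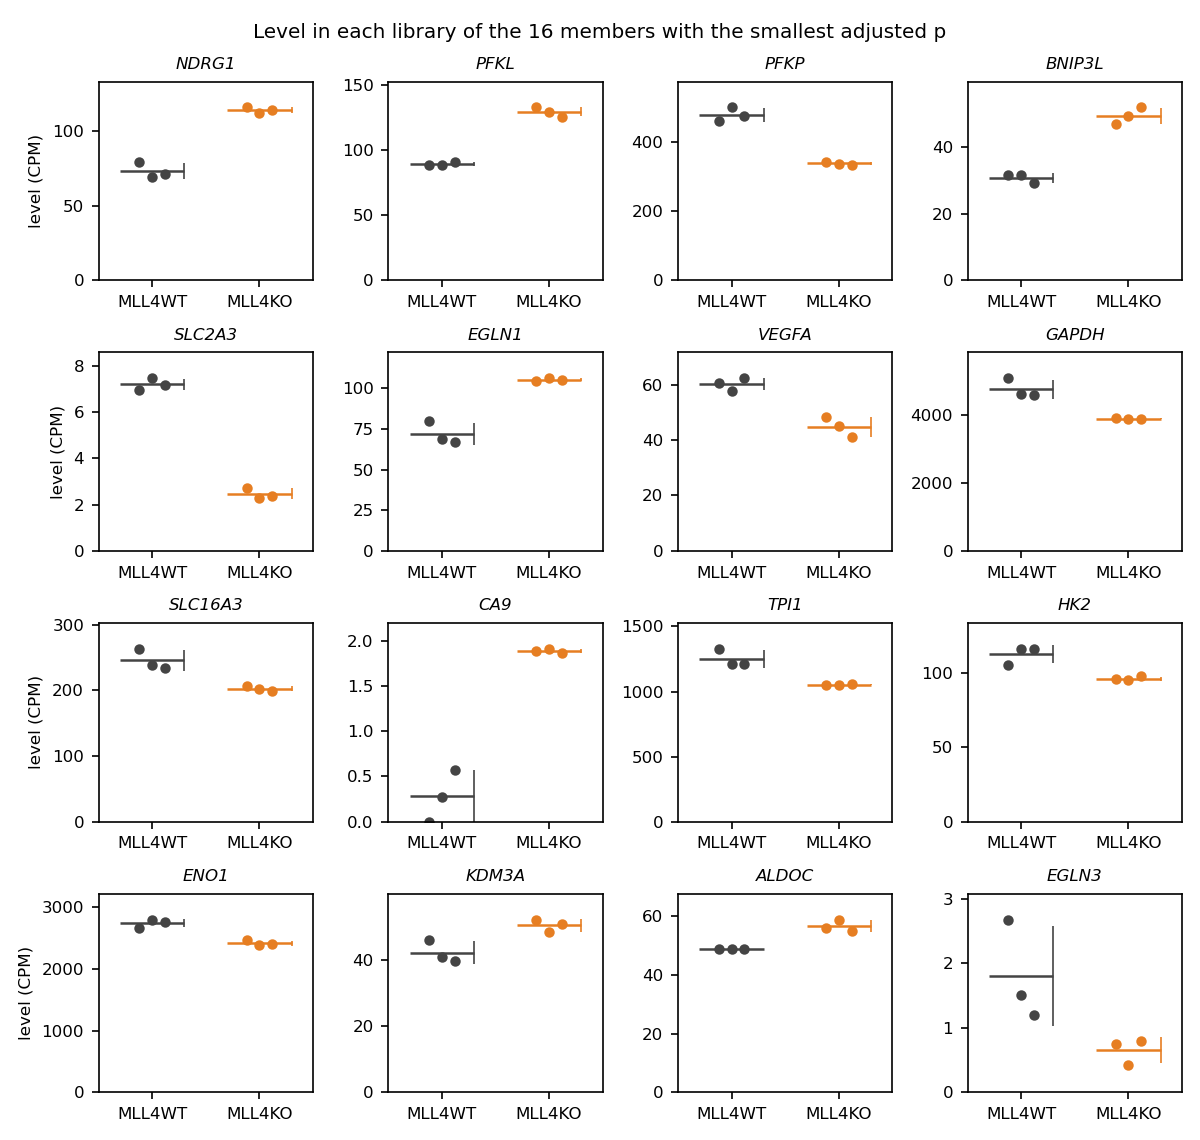
Normalised expression (CPM) of the 16 members with the smallest adjusted p in each of the 3 MLL4WT and 3 MLL4KO libraries, 1 panel per gene with its own axis from 0, with points for libraries and bars for the mean and SD. EGLN1, NDRG1, BNIP3L and PFKL show MLL4KO libraries above every MLL4WT library, and VEGFA, SLC2A3, PFKP and GAPDH show the reverse.

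Both transporter families showed the same form of change: 1 member fell and its partner was not called. SLC2A3 (GLUT3, chr12:7919230-7936275, minus strand), the high-affinity glucose transporter, was at 6.98, 7.48 and 7.18 CPM in MLL4WT and 2.74, 2.28 and 2.39 CPM in MLL4KO. The values were well apart, and SLC2A3 fell 2.91-fold (log2 fold change -1.54 ± 0.15 SE, adjusted p = 1.09e-05, edgeR). SLC2A1 (GLUT1), the main glucose transporter of most cultured cells, was at 124, 101 and 98.8 CPM in MLL4WT and 111, 114 and 112 CPM in MLL4KO. The MLL4KO libraries of SLC2A1 lay within the MLL4WT range (95% interval of the log2 fold change -0.09 to 0.23, adjusted p = 0.471), but without MLL4WT replicate 1, its highest library, SLC2A1 was called higher in MLL4KO (log2 0.17, adjusted p = 0.000601). Per kilobase of exon, SLC2A3 went from 4.93% ± 0.686 of its family in MLL4WT to 1.66% ± 0.175 in MLL4KO.

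SLC16A3 (MCT4, chr17:82228397-82261129, plus strand), the HIF-induced exporter of lactate, was at 263, 239 and 234 CPM in MLL4WT and 206, 202 and 199 CPM in MLL4KO. It fell 1.21-fold without overlap (log2 fold change -0.27 ± 0.05 SE, adjusted p = 0.001). SLC16A3 shares 482 exon bases with CSNK1D on the opposite strand, whose log2 fold change was -0.04 (adjusted p = 0.543). SLC16A1 (MCT1), which carries lactate and pyruvate in either direction, was at 215, 236 and 226 CPM in MLL4WT and 235, 234 and 238 CPM in MLL4KO, with overlapping groups and a 95% interval of -0.04 to 0.16 (adjusted p = 0.312). The log2 ratio of SLC16A1 to SLC16A3 was -0.29, -0.02 and -0.06 in MLL4WT and 0.19, 0.21 and 0.26 in MLL4KO, without overlap. These counts are not scaled by gene length, so a ratio of 0 does not mark equal levels. Per kilobase of exon, SLC16A1 went from 60.8% ± 2.48 of its family in MLL4WT to 66.3% ± 0.520 in MLL4KO, the larger part in both groups. With the length of the longest transcript the SLC16A1 share was 50.3% in MLL4WT, near an even split, and 56.2% in MLL4KO. SLC16A7 is not a member and is not counted in these shares.

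Of the 17 glycolytic enzymes, 3 rose, 7 fell and 7 were not called, with a median log2 fold change of -0.12. That is 58.8% called against 41.4% of all tested genes, but 11.8% were called with a change of at least 1.25-fold, against 25.4% of all genes. Under scaling by total counts 5 rose and 5 fell, and under upper quartile factors 4 rose and 5 fell. These scalings move the median of all genes to 0.06 and 0.05 on the log2 scale, and of all genes 3706 rose and 2394 fell with the first and 3561 and 2475 with the other; without MLL4WT replicate 1, 4 rose and 10 fell. The median of the 17 was nearer 0 in some settings. It was -0.06 under total counts, -0.07 under upper quartile factors and -0.06 without MLL4WT replicate 1. With the column-name code as a term, a fit in which MLL4WT replicate 1 adds nothing to the genotype contrast, it was -0.06. With GC and length trends removed it was -0.05. Together the 17 genes took 1.73%, 1.69% and 1.69% of all counts in the MLL4WT libraries, and 1.62%, 1.61% and 1.61% in MLL4KO. The groups did not overlap in this share, whose means were 1.70% ± 0.0237 and 1.61% ± 0.00831 (SD, n = 3 each). GAPDH, the most abundant of the 17, had the largest fall in CPM, from 4766 ± 280 in MLL4WT to 3897 ± 21.3 in MLL4KO. Much of the drop in the share therefore lies in this 1 gene.

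Hexokinases, which trap glucose as glucose 6-phosphate, were lower in MLL4KO. HK2 (chr2:74833981-74893359, plus strand), the HIF-induced isozyme of many tumours, was at 106, 116 and 116 CPM in MLL4WT and 95.8, 95.1 and 97.9 CPM in MLL4KO. It fell 1.18-fold (log2 fold change -0.23 ± 0.05 SE, adjusted p = 0.00309, edgeR) without overlap. HK1 (chr10:69269984-69401884, plus strand), the broadly expressed isozyme, was at 96.1, 103 and 99.9 CPM in MLL4WT and 93.3, 89.2 and 87.6 CPM in MLL4KO and fell 1.11-fold (adjusted p = 0.0313), a call lost in 10 of 17 alternative settings, among them the omission of MLL4WT replicate 2 or 3 (replicate 2, adjusted p = 0.135; replicate 3, 0.0893) or of any MLL4KO library (adjusted p = 0.0502 to 0.137). The ratio of HK1 to HK2 overlapped between groups, with a log2 difference of 0.08 (exact permutation p = 0.20). GPI, which turns glucose 6-phosphate into fructose 6-phosphate, was not called (log2 -0.08 ± 0.04 SE, adjusted p = 0.144), but was called lower without MLL4WT replicate 1 (log2 -0.06, adjusted p = 0.0464).

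At phosphofructokinase, the committed step of glycolysis, 1 isozyme fell, 1 rose and 1 was not called. PFKP (chr10:3066333-3137712, plus strand), the platelet-type subunit and the most abundant of the 3 here, was at 460.3, 499 and 473 CPM in MLL4WT and 343, 336 and 333 CPM in MLL4KO. All MLL4KO libraries were lower by about the same amount, and PFKP fell 1.42-fold (log2 fold change -0.50 ± 0.04 SE, adjusted p = 4.4e-06, edgeR). PFKL (chr21:44300051-44327376, plus strand), the liver-type subunit, was at 88.9, 88.4 and 90.9 CPM in MLL4WT and 133, 129.8 and 126 CPM in MLL4KO. It rose 1.45-fold (log2 fold change 0.54 ± 0.05 SE, adjusted p = 3.95e-06), again with no overlap. PFKM, the muscle-type subunit, was at 158, 183 and 182 CPM in MLL4WT and 190.5, 186 and 184 CPM in MLL4KO and was not called (log2 0.09 ± 0.06 SE, adjusted p = 0.213); it shares 628 exon bases with SENP1 on the opposite strand.

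The log2 ratio of PFKL to PFKP within a library was -2.37, -2.50 and -2.38 in MLL4WT and -1.37, -1.37 and -1.40 in MLL4KO, a difference of 1.04. By CPM per kilobase of exon, PFKP went from 74.5% ± 0.787 of its family in MLL4WT to 63.5% ± 0.173 in MLL4KO. PFKL went from 7.56% ± 0.352 of its family in MLL4WT to 13.2% ± 0.142 in MLL4KO, and PFKM from 18.0% ± 0.855 of its family in MLL4WT to 23.3% ± 0.0310 in MLL4KO. PFKP thus stayed the most abundant of the 3 in every library. The within-code differences of PFKL were 0.55 and 0.53 on the log2 scale, and those of PFKP were -0.46 and -0.58.

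PFKL lies on chromosome 21, and most tested genes of that chromosome were higher in MLL4KO. Without PFKL, 99 of its 146 tested genes rose, 3 fell and 44 were not called, with a median log2 fold change of 0.51, near the 0.54 of PFKL. Of the 146 genes, 69 had a larger log2 fold change than PFKL. Within 5 Mb of PFKL, 43 of 62 tested neighbours rose and 3 fell, their quartiles were 0.28 and 0.78 around a median of 0.50, and 28 lay above PFKL. The plot of these neighbours by distance shows PFKL in the middle of their range. The part of this chromosome-wide difference in the PFKL value was not tested. Around the other 18 called members the median log2 fold change of neighbours within 5 Mb lay between -0.14 (HK2) and 0.19 (PGK1). PGK1 itself, at 0.14, lay below the median of its neighbours, of which 8 of 16 rose and 1 fell. The part of this in the PGK1 value was not tested.

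**Figure D3:**
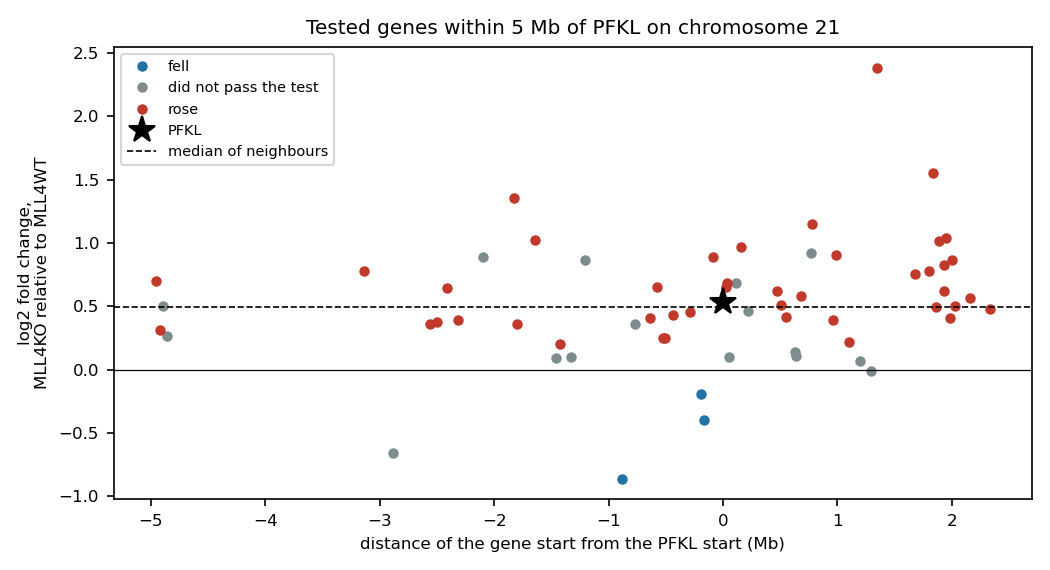
Log2 fold change (MLL4KO against MLL4WT) of the 62 tested genes within 5 Mb of PFKL, against their distance from it in Mb, with PFKL marked. The neighbours have a median of 0.50, and PFKL at 0.54 lies between their quartiles of 0.28 and 0.78.

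At the aldolase step, which splits fructose 1,6-bisphosphate, ALDOC (chr17:28573115-28577264, minus strand), the isozyme known best from brain, was at 48.7, 48.8 and 48.8 CPM in MLL4WT and 55.9, 58.8 and 55.0 CPM in MLL4KO. It rose 1.16-fold (log2 fold change 0.21 ± 0.05 SE, adjusted p = 0.00827, edgeR), and its groups did not overlap. ALDOA, the main isozyme of most tissues, was at 1640.5, 1437 and 1458 CPM in MLL4WT and 1395, 1367 and 1396 CPM in MLL4KO. Its groups also did not overlap, but the test did not call it (log2 -0.12 ± 0.05 SE, adjusted p = 0.0825), and the highest of the 6 values was again MLL4WT replicate 1. Without that library ALDOA was called lower in MLL4KO (log2 -0.06, adjusted p = 0.0282). ALDOC remained the minor isozyme, going from 4.15% ± 0.288 of its family in MLL4WT to 5.18% ± 0.232 in MLL4KO.

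TPI1 (chr12:6867119-6870948, plus strand), which interconverts the triose phosphates, was at 1327, 1210.1 and 1212 CPM in MLL4WT and 1051, 1049 and 1055 CPM in MLL4KO. It fell 1.19-fold (log2 fold change -0.25 ± 0.05 SE, adjusted p = 0.00132, edgeR) without overlap, and correcting for GC content and gene length ended the call (log2 -0.10, adjusted p = 0.0529). GAPDH (chr12:6533927-6538374, plus strand), the triose-phosphate dehydrogenase often used to normalise RNA measurements, was at 5089, 4614 and 4596 CPM in MLL4WT and 3920.2, 3879 and 3891 CPM in MLL4KO. Each MLL4KO library was below each MLL4WT library, and GAPDH fell 1.22-fold (log2 fold change -0.29 ± 0.05 SE, adjusted p = 0.000629), a call kept in all 17 alternative settings with log2 fold changes from -0.31 to -0.14. Reads of both genes can also fall on processed copies: TPI1P1 stood at 16.9 CPM on average in MLL4WT and 14.2 CPM in MLL4KO, a small part of the TPI1 level, and GAPDHP62 had too few counts to be tested.

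PGK1, the first ATP-forming enzyme of the pathway, ranged from 479.8 to 518 CPM in MLL4WT and from 542 to 562 CPM in MLL4KO. It rose 1.10-fold (adjusted p = 0.026, edgeR), a call that ended under the same correction (log2 0.05, adjusted p = 0.257) and when MLL4KO replicate 1, 2 or 3 was left out (adjusted p = 0.0715, 0.0514 and 0.0906). PGAM1, the phosphoglycerate mutase, was not called (95% interval of the log2 fold change -0.11 to 0.09). ENO1 (chr1:8861000-8879250, minus strand), the main enolase, was at 2658, 2792 and 2759 CPM in MLL4WT and 2459, 2386 and 2393 CPM in MLL4KO and fell 1.13-fold (log2 fold change -0.18 ± 0.04 SE, adjusted p = 0.00533) without overlap. ENO2, the enolase best known from neurons, was at 105, 108 and 114 CPM in MLL4WT and 106, 95.7 and 96.9 CPM in MLL4KO, with overlapping groups and a log2 fold change of -0.14 ± 0.06 (SE; adjusted p = 0.066); it was called lower without MLL4WT replicate 1 (adjusted p = 0.00633) or MLL4KO replicate 1 (adjusted p = 0.0465). PKM, the pyruvate kinase gene whose splice forms these gene-level counts do not separate, was not called (log2 0.07 ± 0.04 SE, adjusted p = 0.187), but was called higher without MLL4WT replicate 1 (log2 0.09, adjusted p = 0.000524).

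LDHA, the lactate dehydrogenase subunit that HIF induces, ranged from 1030.0 to 1194 CPM in MLL4WT and from 991 to 1026 CPM in MLL4KO. It fell 1.13-fold (adjusted p = 0.0265, edgeR), a call lost in 7 of 17 alternative settings: under total counts and upper quartile scaling, and without any 1 library other than MLL4WT replicate 1 (adjusted p = 0.0725 to 0.118). LDHB, the subunit that predominates in oxidative tissues, ranged from 814 to 1039 CPM in MLL4WT and from 989 to 1021 CPM in MLL4KO and was not called (adjusted p = 0.522). The LDHA to LDHB log2 ratio was 0.34, 0.20 and 0.21 in MLL4WT and -0.01, 0.01 and 0.01 in MLL4KO, a difference of -0.25 with no overlap. Per kilobase of exon LDHA went from 36.4% ± 1.24 of its family in MLL4WT to 32.5% ± 0.212 in MLL4KO, with LDHB the larger part in both groups.

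None of the 3 regulatory enzymes was called by edgeR; at an unadjusted p under 0.05 edgeR and DESeq2 gave 0 and limma-voom gave 1. PFKFB3 and PFKFB4, which make and break the phosphofructokinase activator fructose 2,6-bisphosphate, had log2 fold changes of -0.06 ± 0.05 and 0.18 ± 0.09 (SE; adjusted p = 0.36 and 0.124). PFKFB4 was called higher in 4 of 17 alternative settings, among them without MLL4WT replicate 1 (log2 0.27, adjusted p = 0.00614). PDK1, the HIF-induced kinase that switches off pyruvate dehydrogenase, had a log2 fold change of -0.14 ± 0.14 (adjusted p = 0.445), and was called lower without MLL4WT replicate 1 (log2 -0.25, adjusted p = 0.0383). Its level per kilobase was 1.06 CPM per kb in MLL4WT and 0.998 in MLL4KO, the lowest of the 38 after CA9 and EGLN3 in MLL4WT.

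Set side by side per kilobase of exon, the members spanned a wide range of levels. GAPDH stood at 1599 CPM per kb in MLL4WT and 1307 in MLL4KO, ENO1 at 519 CPM per kb in MLL4WT and 457 in MLL4KO, and TPI1 at 463 CPM per kb in MLL4WT and 389.7 in MLL4KO. ALDOA followed at 386 CPM per kb in MLL4WT and 354 in MLL4KO, LDHB at 320.1 CPM per kb in MLL4WT and 336 in MLL4KO, and PGAM1 at 282 CPM per kb in MLL4WT and 279.9 in MLL4KO. PKM stood at 234 CPM per kb in MLL4WT and 246 in MLL4KO, LDHA at 182 CPM per kb in MLL4WT and 162 in MLL4KO, PFKP at 98.8 CPM per kb in MLL4WT and 69.8 in MLL4KO, and PGK1 at 91.1 CPM per kb in MLL4WT and 100.4 in MLL4KO. The entry enzymes were lower, with HK1 at 15.8 CPM per kb in MLL4WT and 14.3 in MLL4KO and HK2 at 18.6 CPM per kb in MLL4WT and 15.9 in MLL4KO. At the low end CA9 stood at 0.169 CPM per kb in MLL4WT and 1.13 in MLL4KO, and EGLN3 at 0.244 CPM per kb in MLL4WT and 0.0895 in MLL4KO. Lengths are unions of annotated exons, so a gene with many rarely used exons is understated.

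Ratios within a library do not depend on library scaling, and 14 pairs of isozymes or paralogues were compared by such ratios. In 10 of 14 pairs the 3 MLL4KO ratios did not overlap the 3 MLL4WT ratios. Each of these 10 had an exact permutation p of 0.10, the smallest that 3 against 3 libraries can give, or 0.14 after Benjamini-Hochberg adjustment over the 14, so none could pass 0.05. The largest log2 differences were 1.94 for EGLN1 to EGLN3, 1.60 for SLC2A1 to SLC2A3, 1.04 for PFKL to PFKP and -0.82 for BNIP3 to BNIP3L. Those of PFKM to PFKP (0.60), PFKL to PFKM (0.43), SLC16A1 to SLC16A3 (0.34), ALDOA to ALDOC (-0.34), LDHA to LDHB (-0.25) and HIF1A to EPAS1 (0.13) were smaller. The HIF1A to EPAS1 ratios were nearly touching, at 2.67 in both the highest MLL4WT and the lowest MLL4KO library, and without MLL4WT replicate 1 their difference was 0.05. With GC and length trends removed it was 0.03, with overlapping groups (exact permutation p = 0.6). The 4 pairs with overlapping ratios were P4HA1 to P4HA2, HK1 to HK2, PFKFB3 to PFKFB4 and ENO1 to ENO2, with exact permutation p from 0.20 to 0.40. No difference changed sign in any alternative setting tried for the ratios.

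**Figure D4:**
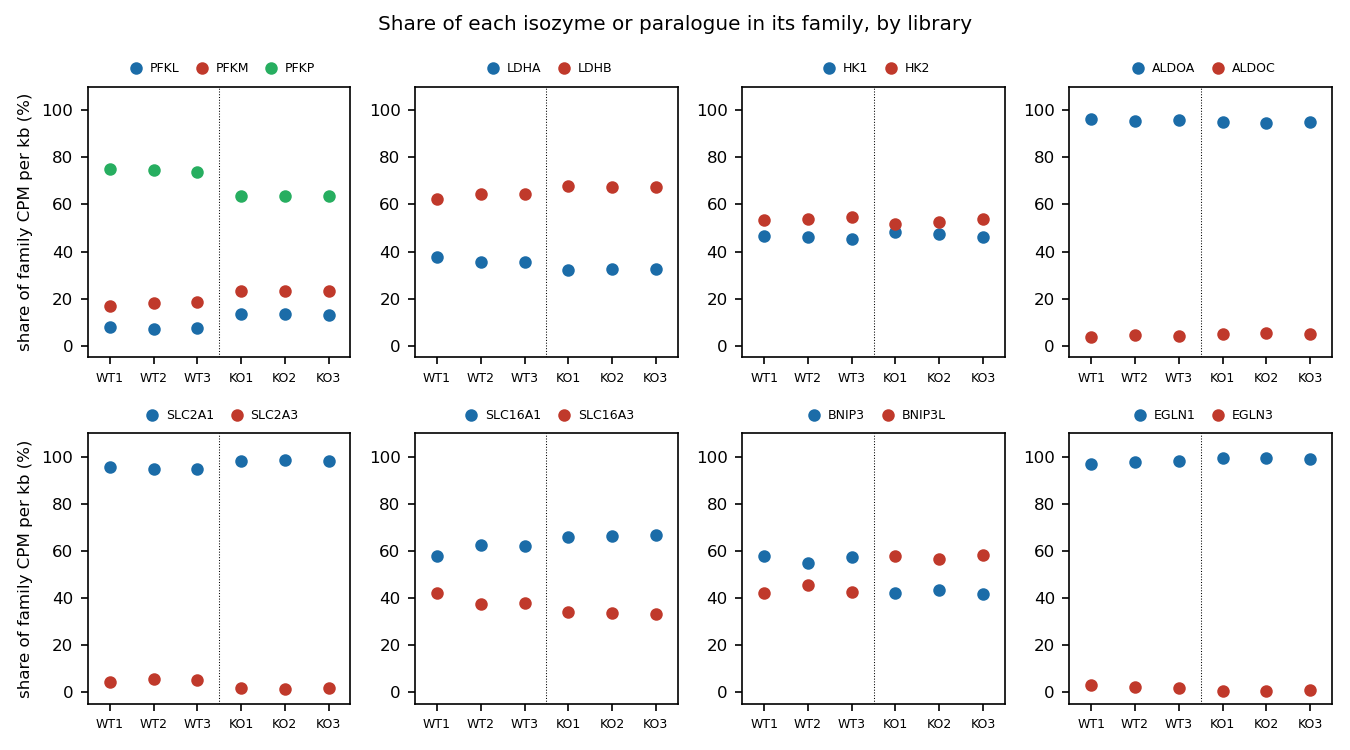
Share (%) of each isozyme or paralogue in its family's CPM per kilobase of exon, for 8 families in each of the 6 libraries. WT1 to WT3 are MLL4WT and KO1 to KO3 are MLL4KO. A family holds only the listed members, so EGLN2 and SLC16A7 are not counted. PFKP drops from 74.5% to 63.5% on average as PFKL and PFKM gain, BNIP3L gains on BNIP3, and the shares of HK1 and HK2 overlap between groups.

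The wider pathway was read from 5 further lists. Of 15 genes that regulate HIF, 6 rose, 1 fell and 8 were not called (median log2 fold change 0.08), which is 46.7% called; over all tested genes 41.4% were called, 19.8% higher and 21.6% lower. ARNT2, a partner subunit of the HIF alpha proteins, rose 1.38-fold from 12.1 ± 1.39 CPM in MLL4WT to 16.9 ± 0.711 CPM in MLL4KO (adjusted p = 0.00328, edgeR). VHL, the substrate receptor of the ubiquitin ligase that degrades HIF alpha, rose 1.21-fold from 77.9 ± 7.53 CPM in MLL4WT to 93.3 ± 3.16 CPM in MLL4KO (adjusted p = 0.00511). ELOC, the elongin subunit of the same ligase, fell 1.44-fold from 96.7 ± 11.1 CPM in MLL4WT to 67.7 ± 0.925 CPM in MLL4KO (adjusted p = 0.000111). Around ELOC, 10 of 19 tested neighbours within 5 Mb on chromosome 8 also fell and 1 rose, with a median log2 fold change of -0.38.

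Of 36 other HIF targets 31 were tested, and 6 rose, 14 fell and 11 were not called (median -0.10), which is 64.5% called against the same 41.4%. KDM5B, a demethylase of histone H3 lysine 4, rose 1.79-fold from 21.5 ± 1.98 CPM in MLL4WT to 38.2 ± 0.617 CPM in MLL4KO (adjusted p = 5.72e-06, edgeR), and PLOD2, a collagen lysyl hydroxylase, rose 1.33-fold from 70.6 ± 4.88 CPM in MLL4WT to 94.6 ± 2.75 CPM in MLL4KO (adjusted p = 0.000142). P4HB, the protein disulfide isomerase that is also the beta subunit of collagen prolyl 4-hydroxylase, fell 1.60-fold from 1267 ± 18.0 CPM in MLL4WT to 789 ± 18.6 CPM in MLL4KO (adjusted p = 2.23e-07). BHLHE40, a hypoxia-induced transcriptional repressor, fell 1.49-fold from 67.6 ± 2.04 CPM in MLL4WT to 45.5 ± 1.82 CPM in MLL4KO (adjusted p = 9.6e-06). Of the 31, 15 (48.4%) were called with a change of at least 1.25-fold, against 25.4% of all genes. Genes known as HIF targets were found on both sides here and among the members. More fell than rose in this list, whereas of the 10 members outside glycolysis 4 rose and 1 fell.

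Of 29 other genes of glycolysis and gluconeogenesis 16 were tested, with 2 that rose, 7 that fell and 7 not called (median -0.04). That is 56.2% called against 41.4% of all tested genes. PFKFB2 rose 1.22-fold (adjusted p = 0.00695, edgeR), a call lost under the GC content and gene length correction (log2 0.17, adjusted p = 0.0537). BPGM, which makes 2,3-bisphosphoglycerate, rose 1.23-fold (adjusted p = 0.0267), a call lost without MLL4KO replicate 1, 2 or 3 (adjusted p = 0.0672, 0.0957 and 0.0525). G6PC3, a glucose 6-phosphatase subunit, fell 1.52-fold from 49.1 ± 2.28 CPM in MLL4WT to 32.1 ± 1.91 CPM in MLL4KO (adjusted p = 2.69e-05). ADPGK, an ADP-dependent glucokinase, fell 1.30-fold from 67.1 ± 2.62 CPM in MLL4WT to 51.6 ± 2.74 CPM in MLL4KO (adjusted p = 0.000352). Of 15 genes for pyruvate entry into mitochondria and lactate transport, 2 rose, 3 fell and 10 were not called (median 0.02), which is 33.3% called against 41.4% of all genes. PDK4 rose 2.15-fold from 1.21 ± 0.395 CPM in MLL4WT to 2.55 ± 0.626 CPM in MLL4KO (adjusted p = 0.0151), and PDK2 rose 1.13-fold (adjusted p = 0.0433); both are pyruvate dehydrogenase kinases, as is the uncalled PDK1. PDK4 lost its call when any of MLL4WT replicate 2 and MLL4KO replicates 2 and 3 was left out (adjusted p = 0.0756, 0.0768 and 0.0620). PDK2 lost its call without any 1 library other than MLL4WT replicate 1 (adjusted p = 0.0817 to 0.143).

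PDP1, the phosphatase that opposes those kinases, fell 1.48-fold from 376 ± 9.22 CPM in MLL4WT to 255 ± 5.86 CPM in MLL4KO (adjusted p = 1.28e-06, edgeR), and 28 of its 39 tested neighbours on chromosome 8 fell (median -0.47). SLC16A7 (MCT2), a monocarboxylate transporter, fell 1.38-fold (adjusted p = 0.00046). In the pentose phosphate pathway, which branches from glucose 6-phosphate, 7 of 8 genes were tested, and 3 fell, 0 rose and 4 were not called (median -0.11). That is 42.9% called, near the 41.4% of all tested genes. At an unadjusted p under 0.05, edgeR, DESeq2 and limma-voom each gave 0 that rose and 4 that fell. TKT, the transketolase of the pathway, fell 1.26-fold from 574 ± 37.5 CPM in MLL4WT to 457 ± 2.71 CPM in MLL4KO (adjusted p = 0.000269, edgeR).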

How the data were processed

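RNA was taken from HCT116 cells with a column kit, poly(A) selected and made into libraries with a kit not stated to keep strand, per the labels' protocols. The values deposited by the authors are expected counts per Ensembl gene, unnormalised and already whole, per the file headers. The submitters' processing notes name Salmon 1.8.0, DESeq2 1.44.0 and hg38 without their roles. Which annotation release was counted is not given in the sources used. Counts shared between near-identical or overlapping genes depend on that counting.

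The 38 members, the 5 further lists (103 genes) and the tests were chosen with earlier results of these data known. Genes passing filterByExpr (14543 of 59715) were scaled by TMM factors and tested with the edgeR 4.0.16 quasi-likelihood test in R 4.3.3, all 6 libraries, no covariate, 4 residual degrees of freedom, with Benjamini-Hochberg adjustment over all tested genes and a threshold of 0.05. CPM use the TMM-scaled library size. Levels per kilobase use the exon union of GENCODE 29 on GRCh38, which also gave coordinates and overlaps. Isozyme ratios use counts + 0.5 and exact two-sided permutation tests (SciPy 1.17.1). A count of 0 allows up to 3 counts, 0.149 to 0.446 CPM, for counting error only. The fit was tested on simulated data. Values in every library are given for HIF1A, EPAS1, the 16 members with the smallest adjusted p and their isozyme partners, and of each further list at most 2 called genes in each direction with the smallest adjusted p are named; 1 gene that the rule names is not reported here. Neighbours within 5 Mb and the values within column-name codes were added after seeing the data. Promoter windows and sequences are RefSeq's (GRCh38.p14). Alternatives were other scalings, filters, tools (DESeq2 1.42.0, limma 3.58.1), a replicate block, the column-name code as a term, GC and length correction, thinning, and each library left out.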

Additional observations from a re-analysis of the deposited data

How the results depend on the processing

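Of the 19 called members, 13 kept their call in all 17 alternative settings, and EGLN3, KDM3A, HK1, TPI1, PGK1 and LDHA lost it in at least 1, while 10 uncalled members gained one in at least 1. No called member changed sign. With 1 library left out, 7 to 11 members rose and 8 to 16 fell, both highest without MLL4WT replicate 1. A fit with the column-name code as a term gave the same 11 and 16. MLL4WT replicate 1 is alone in its code, so that fit takes it out of the genotype contrast and is not a separate check. EGLN3 was not tested when counts were thinned to the shallowest library. Depth limits CA9 and EGLN3 most, which are at or under 38 counts and 3 CPM in every library. In leave-one-out fits an arm of 2 libraries shares its spread with the other arm.

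Counts over the further lists moved by more than 1.5 times as follows, and the cause was not tested. Other glycolysis genes that rose went from 2 to 1 with DESeq2 and with GC and length trends removed (1 to 3 with a library left out). Those that fell went from 7 to 4 with total counts, upper quartile factors, DESeq2 and thinning (4 to 7 with a library left out). Pyruvate genes that rose went from 2 to 1 without a filter, with DESeq2 and with the replicate block, and to 0 with thinning (0 to 3 with a library left out). Those that fell went from 3 to 6 with the column-name code as a term (2 to 6 with a library left out). Pentose phosphate genes that rose went from 0 to 2 with GC and length trends removed. With the length of the longest transcript, the share gained by PFKL was 4.72 percentage points in place of 5.66. That gained by EGLN1, in the pair with EGLN3 only, was 4.18 in place of 1.74.

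Log2 fold changes near 0 changed sign only in uncalled genes. With total counts these were ADM (0.00162), ANKRD37 (0.0163), PFKFB3 (0.00399), PGAM1 (0.0477) and KMT2D (0.0478), and with upper quartile factors ANKRD37 (0.00814), PGAM1 (0.0399) and KMT2D (0.0399). With GC and length trends removed they were HIF1A (-0.0877), ADM (0.0805), PGAM1 (0.0925), SLC16A1 (-0.00968) and KMT2D (0.00628), with the column-name code as a term P4HA1 (-0.0355) and LDHB (-0.0341), and with thinning PGAM1 (0.0136). With a library left out, the log2 fold change ranged from -0.129 to 0.0183 for ADM, -0.213 to 0.224 for ANKRD37, -0.0171 to 0.115 for P4HA1, -0.0449 to 0.0181 for PGAM1, -0.0244 to 0.137 for LDHB and -0.0400 to 0.0154 for KMT2D.

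The replicate numbers do not pair the libraries: the correlations of deviations between same-numbered libraries were 0.02, 0.03 and -0.01, and not every library correlated best with its own number. With the replicate block 2689 genes rose and 3024 fell, against 2885 and 3136, and 8 members rose and 10 fell; HK1 lost its call (adjusted p = 0.0509).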

Other observations

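The genes in these 2 paragraphs were chosen after their values were seen, and no list test was run on them. Among the genes that modify collagen, which are listed HIF targets, directions differed. PLOD1, a lysyl hydroxylase, fell 1.38-fold from 292 ± 14.7 CPM in MLL4WT to 211 ± 4.02 CPM in MLL4KO (adjusted p = 1.22e-05, edgeR quasi-likelihood test, n = 3 each), while PLOD2 rose 1.33-fold and P4HB fell 1.60-fold. P4HA1 and P4HA2 had log2 fold changes of 0.05 and -0.07 and were not called. Among genes of glycogen metabolism, GBE1, the branching enzyme, fell 1.27-fold (adjusted p = 0.00101), GYS1, the muscle-type glycogen synthase, fell 1.12-fold (adjusted p = 0.0448) with overlapping groups, and PGM1, which links glycogen to glycolysis, fell 1.11-fold (adjusted p = 0.0403).

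HKDC1, a further hexokinase-domain gene, was scarce in MLL4WT, at 1.34, 1.71 and 1.21 CPM, and lower in MLL4KO, at 0.199, 0.246 and 0.399 CPM. Its fitted fall was 5.07-fold (adjusted p = 0.00063, edgeR) and rests on 9, 25 and 21 counts in MLL4WT and 4, 4 and 6 in MLL4KO. Of genes for secreted proteins among the HIF targets, STC2 fell 1.73-fold from 77.1 ± 10.4 CPM in MLL4WT to 45.1 ± 0.857 CPM in MLL4KO (adjusted p = 1.98e-05), ANGPTL4 fell 1.86-fold (adjusted p = 0.00242), and MIF fell 1.37-fold (adjusted p = 0.00791). ADM (log2 -0.06, adjusted p = 0.756) and LOXL2 (log2 0.07, adjusted p = 0.444) were not called. DDIT4, a stress-induced inhibitor of mTORC1, fell 1.59-fold (adjusted p = 0.000114), and MXI1, a MYC antagonist, rose 1.44-fold (adjusted p = 0.000185).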
